A study of Drosophila melanogaster with 9 samples.

Results

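The segment polarity genes of the Wingless and Hedgehog pathways were followed in whole Drosophila melanogaster embryos that differed in cabut (cbt), a Krüppel-like zinc finger factor needed for dorsal closure. Members were the probe sets whose single platform symbol, current or older, was 1 of 10 listed genes (wg, hh, en, ptc, ci, smo, fz, fz2, nkd and gsb). Of these, 7 genes with 1 probe set each were found (hh, ptc, smo, ci, en, gsb and nkd), among 11953 genes named in the table. The genes wg, fz and fz2 were not analysed here. Each of 9 Affymetrix Drosophila Genome 2.0 arrays carried biotin-labelled total RNA of dechorionated embryos of stages 10 to 13, which take in germ band retraction and the start of dorsal closure. The mutant group (3 arrays) was homozygous for the allele cbtEP(2)2237E1, picked by the absence of GFP from a stock kept over CyO, twi-eGFP, a balancer whose GFP is driven by twist. The control group (3 arrays) was white 1118 (w1118), also passed through the embryo sorter. The third group (3 arrays) was labelled Cbt>69B, in which 69B-Gal4, a driver active in the epidermis, directs UAS-Cbt. About 1000 embryos were pooled for each mutant and each Cbt>69B sample. A control with the driver alone was not analysed here.

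Segment polarity genes divide each embryonic segment into stripes of cells with different fates. In cells of the posterior compartment the homeodomain factor Engrailed (en) keeps the secreted ligand Hedgehog (hh) on. Hedgehog binds Patched (ptc), a receptor that in its free state holds back the membrane protein Smoothened (smo), and the zinc finger factor Cubitus interruptus (ci) then turns on targets, ptc and wingless among them, in the neighbouring anterior cells. Wingless signals back to the engrailed cells, Gooseberry (gsb), a paired-domain factor, helps to keep wingless on, and Naked cuticle (nkd) is induced by Wingless and damps its signal through Dishevelled.

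Values are log2 expression levels, so 1 unit is a doubling, and a level can be compared between arrays for a probe set but not between probe sets. The w1118 arrays did not form a single cluster. Replicates 1 and 3 correlated at Pearson r = 0.987 across all probe sets, whereas replicate 2 correlated with them at 0.890 to 0.894 and with the Cbt>69B arrays at 0.968 to 0.981. The poly-A spike-in probe sets averaged 1.91 and 2.42 on w1118 replicates 1 and 3 and 3.09 to 4.03 on the other arrays. The targeted gene went against 1 label, since the level of cbt was 6.05 to 7.90 in w1118, 3.85 to 4.70 in the mutant and 3.16 to 3.74 on the arrays labelled Cbt>69B. Directions in that group are therefore those of the arrays so labelled. The RNA came from whole embryos, so fewer cells of a kind and less RNA per cell cannot be told apart. Epidermal and ectodermal markers (grh, shg, crb, ush and pnr, 5 of 5 measured) were above background on every array, and the sum of their log2 levels was 23.6 on w1118 replicate 2 and 30.3 and 30.5 on replicates 1 and 3, 21.7 to 26.4 in the mutant and 18.5 to 21.5 on the Cbt>69B arrays. The same sum over the 3 of 5 muscle markers that were measured was 4.04 on w1118 replicate 2 and 17.01 and 15.5 on replicates 1 and 3, 5.69 to 10.4 in the mutant and 3.77 to 4.43 on the Cbt>69B arrays. In 8 of 9 marker lists replicate 2 was the lowest of the w1118 arrays, the exception being germline and maternal genes. Hemocyte markers (5 of 5 measured) ranged from 19.9 to 28.9 in w1118, 21.3 to 22.1 in the mutant and 18.1 to 20.4 in Cbt>69B, and neuroblast markers (5 of 5) from 29.6 to 35.3, 27.0 to 31.9 and 27.7 to 28.7. Neuron markers (4 of 5) ranged in the same order from 9.03 to 14.3, 8.86 to 9.73 and 8.33 to 9.51, and tracheal markers (3 of 4) from 14.1 to 16.5, 12.8 to 14.98 and 13.3 to 14.1. Amnioserosa markers (5 of 5) ranged from 18.95 to 20.7, 16.03 to 19.1 and 17.5 to 17.9, and earlier segmentation genes (4 of 5) from 11.1 to 16.2, 9.95 to 11.8 and 9.92 to 10.9. Germline and maternal genes (3 of 5) ranged from 2.18 to 5.10, 2.14 to 5.86 and 1.94 to 2.12. The markers at background on all arrays of a group were vas in each group and bcd, ftz and cpx in Cbt>69B. The part of these shifts in the results below was not tested.

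**Figure D1:**
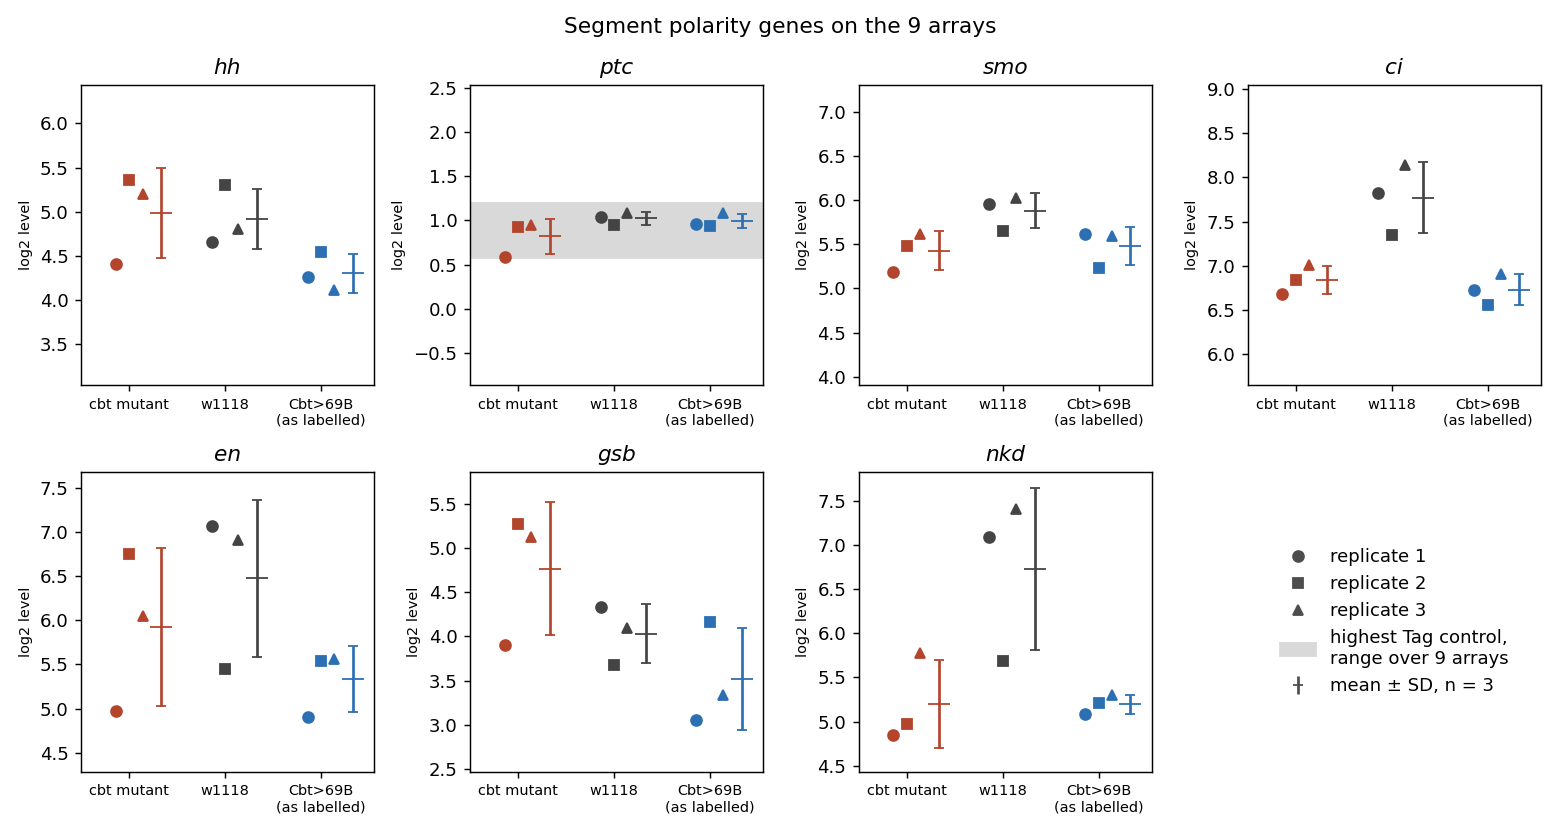
Log2 expression level (y axis, each panel spanning the same number of log2 units) of the 7 segment polarity genes in the mutant, w1118 and Cbt>69B groups. Symbols mark replicates, bars give the mean ± SD (n = 3), and the grey band in the ptc panel spans the highest Tag control of the 9 arrays, from 0.58 to 1.20. The w1118 points of en and nkd are split, with replicate 2 at 5.45 and 5.69 and replicates 1 and 3 at 6.91 or more.

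The ligand gene hh had its lowest mean level on the Cbt>69B arrays. Its level was 4.41, 5.36 and 5.19 on mutant replicates 1, 2 and 3, 4.65, 5.30 and 4.80 on w1118 replicates 1, 2 and 3, and 4.26, 4.54 and 4.11 on Cbt>69B replicates 1, 2 and 3. All Cbt>69B values lay below all w1118 values, by a gap of 0.11, while the range of the w1118 arrays lay inside that of the mutant arrays. The means were 4.99 ± 0.51, 4.92 ± 0.34 and 4.30 ± 0.22 (SD, n = 3 each). The log2 difference was 0.07 (SE 0.28, limma adjusted p = 0.979) for mutant minus w1118 and -0.61 (SE 0.28, limma adjusted p = 0.174) for Cbt>69B minus w1118, and neither passed. For Cbt>69B minus mutant it was -0.68 (SE 0.28, limma adjusted p = 0.252), with mutant replicate 1 inside the range of the Cbt>69B arrays.

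Of the membrane proteins that carry the Hedgehog signal, smo was measured and ptc was at background. The receptor gene ptc stood at 0.59 to 1.09 on the 9 arrays, inside the range of the background, 0.58 to 1.20, taken as each array's highest Tag control, a probe set without a target in the fly. It exceeded that array's own background on 2 of 3 mutant, 2 of 3 w1118 and 1 of 3 Cbt>69B arrays, so the ptc probe set gave no level that could be compared, and no fold is given. The signal transducer smo was measured above background on all 9 arrays. Its level was 5.18, 5.48 and 5.62 in the mutant, 5.96, 5.65 and 6.03 in w1118, and 5.61, 5.23 and 5.59 in Cbt>69B (replicates 1, 2 and 3). The w1118 arrays were highest in both comparisons, but the gap to the nearest array was 0.04 in each. The log2 difference from w1118 was -0.45 (SE 0.17, limma adjusted p = 0.512) in the mutant and -0.40 (SE 0.17, limma adjusted p = 0.157) in Cbt>69B. Between Cbt>69B and mutant it was 0.05 (SE 0.17).

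The gene ci, the transcription factor at the end of the Hedgehog pathway, was lower in both groups than in w1118 on every array. Its level was 6.68, 6.84 and 7.002 in the mutant, 7.83, 7.35 and 8.14 in w1118, and 6.72, 6.56 and 6.91 in Cbt>69B (replicates 1, 2 and 3). The means were 6.84 ± 0.16, 7.77 ± 0.40 and 6.73 ± 0.18 (SD, n = 3 each). The gap between the groups was 0.34 for the mutant and 0.44 for Cbt>69B, so ci was the member whose groups stood farthest apart without overlap, and w1118 replicate 2 lay on the control side here. The log2 difference was -0.93 (SE 0.21, limma adjusted p = 0.268) for mutant minus w1118 and -1.04 (SE 0.21, limma adjusted p = 0.0861) for Cbt>69B minus w1118, and neither passed over all 18769 probe sets. Between Cbt>69B and mutant it was -0.11 (SE 0.21).

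For en, the arrays of a group spread widely, with an SD of 0.90 in the mutant and 0.89 in w1118 (n = 3 each). Its level was 4.98, 6.76 and 6.04 in the mutant, 7.06, 5.45 and 6.91 in w1118, and 4.90, 5.54 and 5.56 in Cbt>69B (replicates 1, 2 and 3). Mutant replicate 1 and w1118 replicate 2 lay with the Cbt>69B arrays, and the other mutant and w1118 arrays lay above them. The log2 difference from w1118 was -0.55 (SE 0.55, limma adjusted p = 0.854) in the mutant and -1.14 (SE 0.55, limma adjusted p = 0.188) in Cbt>69B, and the arrays overlapped in both. The platform gives this probe set the suffix s_at, which marks probes shared by several transcripts.

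The gene gsb was the only member with a higher mean level in the mutant than in w1118 by more than the SE. Its level was 3.91, 5.28 and 5.12 in the mutant, 4.33, 3.68 and 4.09 in w1118, and 3.05, 4.17 and 3.34 in Cbt>69B (replicates 1, 2 and 3). Mutant replicates 2 and 3 were above all other arrays, and mutant replicate 1 was among the controls. The log2 difference was 0.74 (SE 0.42, limma adjusted p = 0.672) for mutant minus w1118 and -0.51 (SE 0.42, limma adjusted p = 0.408) for Cbt>69B minus w1118. It was -1.25 (SE 0.42, limma adjusted p = 0.194) for Cbt>69B minus mutant, the largest difference of a member in that comparison, and it did not pass.

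The Wingless target and antagonist nkd had the largest differences from w1118 of the members above background, and also the largest spread among the controls. Its level was 4.85, 4.98 and 5.78 in the mutant, 7.10, 5.69 and 7.41 in w1118, and 5.08, 5.21 and 5.30 in Cbt>69B (replicates 1, 2 and 3). All Cbt>69B arrays were below all w1118 arrays, by a gap of 0.39, while mutant replicate 3 was above w1118 replicate 2. The means were 5.20 ± 0.50 in the mutant, 6.73 ± 0.92 in w1118 and 5.19 ± 0.11 in Cbt>69B (SD, n = 3 each). The log2 difference from w1118 was -1.53 (SE 0.44, limma adjusted p = 0.385) in the mutant and -1.54 (SE 0.44, limma adjusted p = 0.0970) in Cbt>69B, and neither passed. Between Cbt>69B and mutant it was -0.01 (SE 0.44).

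**Figure D2:**
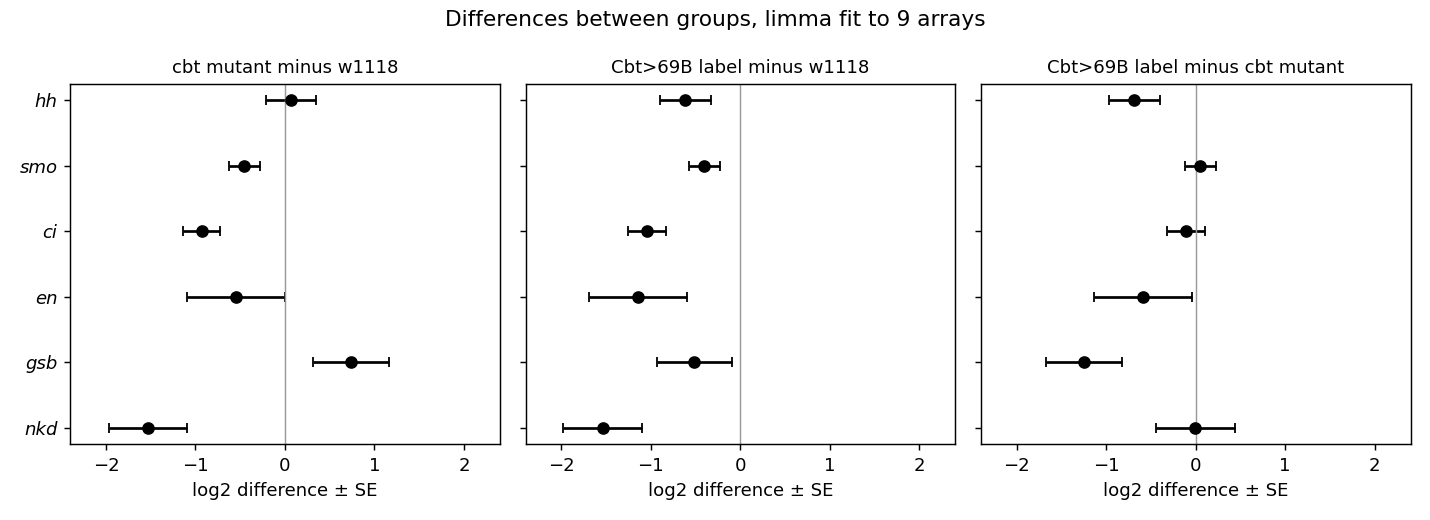
Log2 difference ± SE (x axis) of the 6 members above background in the comparisons of mutant with w1118, of the arrays labelled Cbt>69B with w1118, and of Cbt>69B with mutant, from the limma fit to all 9 arrays. The points of nkd lie at -1.53 and -1.54 in the comparisons with w1118 and at -0.01 between the other groups, and gsb lies at 0.74, -0.51 and -1.25.

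Over the whole table, with Benjamini-Hochberg adjustment over 18769 probe sets, 0 of 7 members passed in any comparison. In mutant versus w1118 the test called 0.133% of all probe sets, in Cbt>69B versus w1118 0.373% and in Cbt>69B versus mutant 0.256%. At an unadjusted limma p under 0.05, 3 members were lower in the mutant than in w1118 (ci, smo and nkd) and 0 higher, where 5.17% of all probe sets were lower and 3.84% higher. Of the 6925 probe sets with a mean log2 level above 2, called brighter below, to which these members belong, 8.3% were lower and 8.52% higher. For Cbt>69B against w1118, 2 members were lower (ci and nkd) and 0 higher, where 15.6% of all probe sets were lower and 16.3% higher, and 32.5% and 21.8% of the brighter ones. For Cbt>69B against mutant, 2 were lower (gsb and hh) and 0 higher, beside 9.17% and 9.71% of all and 22.3% and 9.04% of the brighter ones. The comparisons share arrays, so they are not independent of each other.

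Without overlap between the groups, 2 members (ci and smo) were lower in the mutant than in w1118 and 0 higher, where 4.42% of all probe sets were lower and 5.38% higher in that way. Of the brighter probe sets 4.58% were lower. On the Cbt>69B arrays 4 members (hh, smo, ci and nkd) lay below all w1118 arrays and 0 above, where 12% of all probe sets lay below, 17% above, and 24.3% of the brighter ones below. Between Cbt>69B and mutant 0 members were without overlap, beside 16.2% of all probe sets lower, 22.4% higher and 35.5% of the brighter ones lower. The median log2 difference of the 6 members above background was -0.50 for mutant minus w1118, -0.83 for Cbt>69B minus w1118 and -0.35 for Cbt>69B minus mutant. The medians over all 18769 probe sets were 0.01, 0.09 and 0.08, and over the brighter ones 0.11, -0.34 and -0.28.

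The choice of control arrays moved the members. From the mean of w1118 replicates 1 and 3, w1118 replicate 2 differed by -1.54 in en and by -1.56 in nkd, while ci differed by -0.64, gsb by -0.53, smo by -0.34 and hh by 0.57. Over the 6925 brighter probe sets that difference had a median of -0.33 and quartiles of -1.40 and 0.90, so en and nkd lay beyond the lower quartile and the other members inside the quartiles. Without w1118 replicate 2, ci (-1.14, limma adjusted p = 0.00246) and nkd (-2.05, limma adjusted p = 0.00175) passed in mutant versus w1118, where 21.2% of all probe sets did. In the same setting ci (-1.25), nkd (-2.06), en (-1.65) and smo (-0.51) passed in Cbt>69B versus w1118, where 40.6% of all probe sets did. The controls are then w1118 replicates 1 and 3 alone, and genotype cannot be told apart from what sets these arrays apart. With w1118 replicate 2 as the only control, which is then assumed to vary like the other groups, 0 members passed in any comparison, nkd stood at -0.49 in both the mutant and Cbt>69B, and ci at -0.51 and -0.62.

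Gene length ran with the differences across genes. Over 6087 brighter probe sets with a length, Spearman's rho of length with the log2 difference was -0.58 for mutant minus w1118 and -0.40 for Cbt>69B minus w1118, as a description over genes that share arrays. For Cbt>69B minus mutant it was -0.13. Length also ran with the split inside the control group, at -0.46 for w1118 replicate 2 minus the mean of replicates 1 and 3. The members span 2680 bases (gsb) to 41709 bases (nkd) in the RefSeq table. With the length trend removed from each array, nkd stood at -0.70 in the mutant and -0.44 in Cbt>69B, and ci at -0.47 and -0.23. Against w1118, hh then stood at 0.28 and smo at 0.17 in Cbt>69B and hh at 0.63 in the mutant, none of which passed. Of the 20 alternatives run, 12 changed a member's difference from w1118, and the others could change only its test. Under those 12, ci, nkd and smo were negative and gsb positive in the mutant, and ci, nkd, en and gsb were negative on the Cbt>69B arrays. Some of these values were near 0. In Cbt>69B minus w1118, gsb stood at -0.03 with quantile normalization and -0.09 with cyclic loess, and en at -0.12 against w1118 replicate 2 alone. With quantile normalization hh stood at -0.24, smo at -0.30, en at -1.07, ci at -1.10 and nkd at -1.46 there. With array medians set equal, gsb stood at -0.60 and hh at -0.70.

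**Figure D3:**
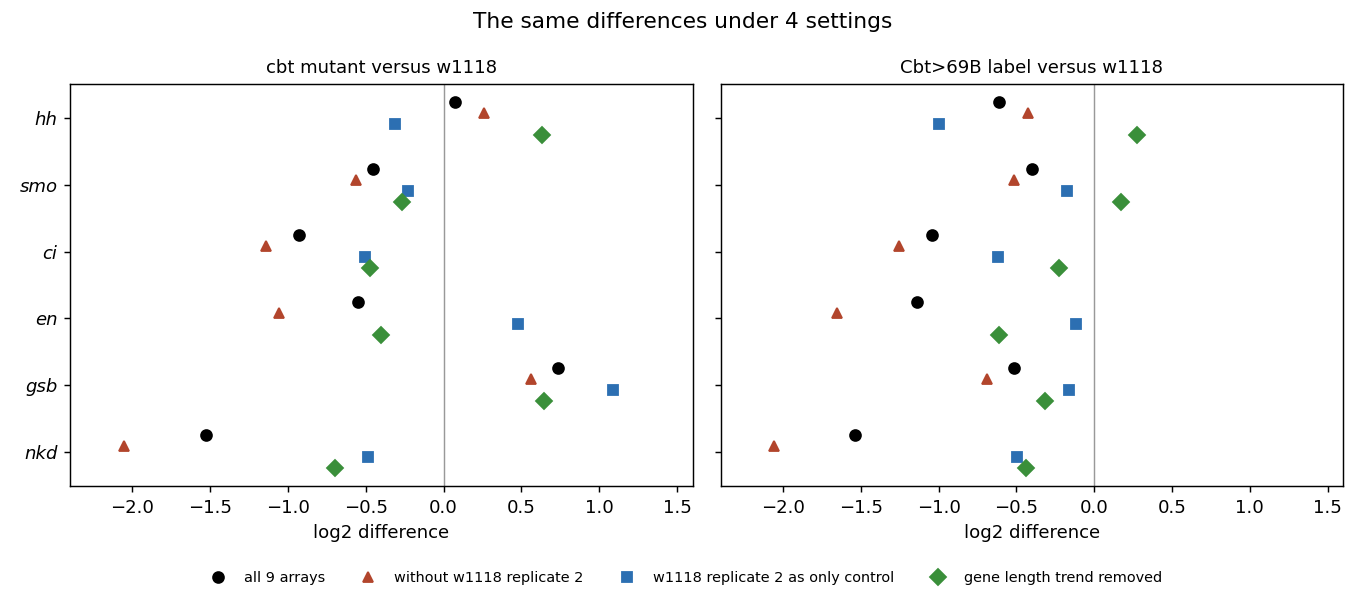
Log2 difference from w1118 (x axis) of the 6 members above background, for the mutant on the left and the arrays labelled Cbt>69B on the right, with all 9 arrays, without w1118 replicate 2, with w1118 replicate 2 as the only control, and with the gene length trend removed. For nkd in the mutant the points run from -2.05 without w1118 replicate 2 to -0.49 against that array alone, and en crosses 0 there (0.48).

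The comparison of Cbt>69B with mutant does not use the w1118 arrays except for the spread. Fitted on these 2 groups alone, it called 2595 probe sets (13.8%), and again 0 of 7 members. The values of ci, smo and nkd in that comparison were between -0.11 and 0.05, with SEs of 0.17 to 0.44, so for these 3 genes no difference between the groups was detected with 3 arrays each.

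The other genes of the pathways were described from a list of 70, of which 43 had a probe set with a single symbol. Over all probe sets, 0 of 43 passed in any comparison. At an unadjusted limma p under 0.05, 7 were lower and 1 higher in the mutant than in w1118, 24 lower and 4 higher in Cbt>69B than in w1118, and 6 lower and 3 higher in Cbt>69B than in the mutant. Of the 43 genes, 38 were among the brighter probe sets, of which 8.3%, 32.5% and 22.3% were lower and 8.52%, 21.8% and 9.04% higher by that p. The median differences of the 43 were -0.58, -0.91 and -0.29, beside 0.11, -0.34 and -0.28 over the brighter probe sets. In all, 34 of the 43 stood lower on w1118 replicate 2 than on the mean of replicates 1 and 3, and 9 higher. The median of that difference was -1.09 over the 43, -0.33 over the brighter probe sets (quartiles -1.40 and 0.90) and 0.11 over all probe sets. Without w1118 replicate 2, 21 of the 43 were called lower and 3 higher in the mutant, and 27 lower and 6 higher in Cbt>69B, at the shares of all probe sets given above.

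**Figure D4:**
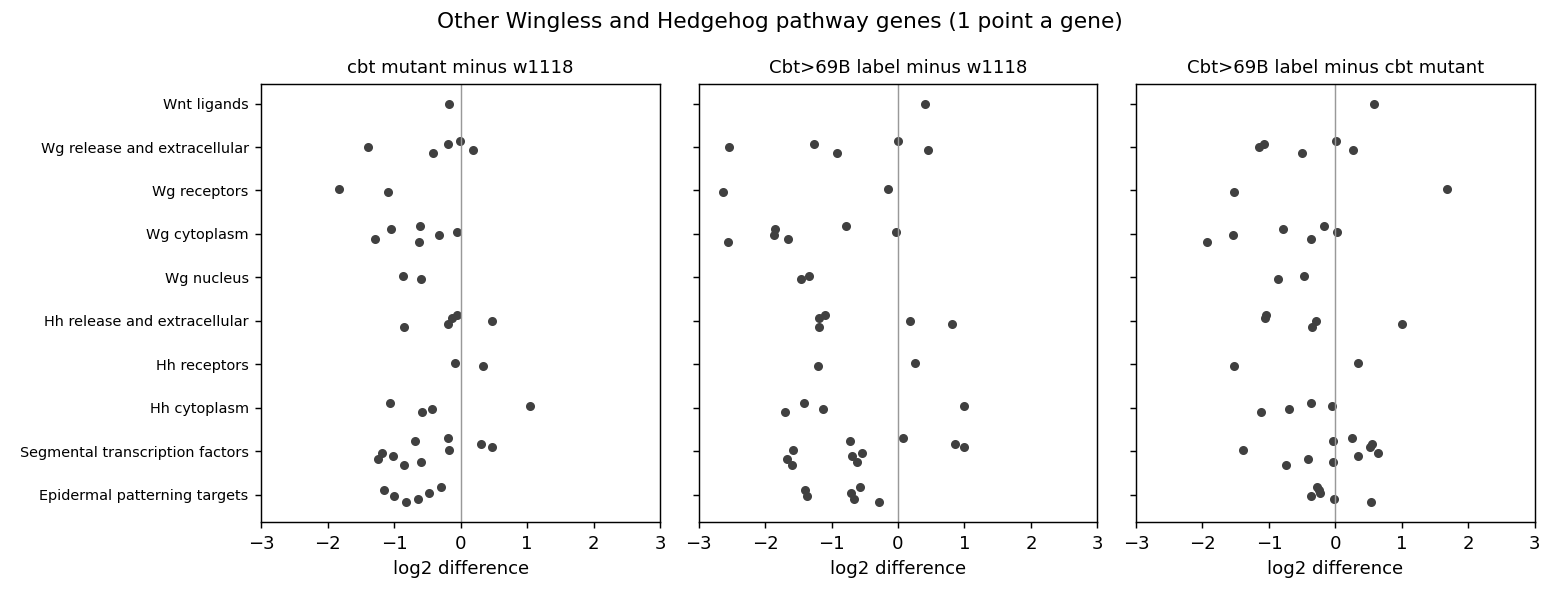
Log2 difference (x axis) of 43 other Wingless and Hedgehog pathway genes, 1 point a gene, grouped by role (rows), in the 3 comparisons. In Cbt>69B minus w1118 the points of the Wingless cytoplasmic genes reach -2.55, and 33 of 43 points (76.7%) lie below 0, beside 39.6% of all probe sets and 59.7% of the brighter ones.

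Among Hedgehog pathway genes, Su(fu), the inhibitor that binds Ci, had a value opposite to that of ci in both comparisons with w1118. Its level was 4.70 ± 0.65 in w1118, 5.75 ± 0.16 in the mutant and 5.70 ± 0.09 in Cbt>69B (SD, n = 3 each), without overlap, though w1118 replicate 2 stood at 5.45 and replicates 1 and 3 at 4.27 and 4.40. The differences were 1.04 (limma adjusted p = 0.366) and 0.99 (limma adjusted p = 0.0974). Gprk2, a kinase that phosphorylates Smoothened, stood at -1.06 in the mutant and -1.42 (limma adjusted p = 0.0933) in Cbt>69B, where its arrays did not overlap those of w1118. The gene shf, which encodes a secreted factor that lets Hedgehog spread, was 0.81 above w1118 and 1.001 above the mutant on the Cbt>69B arrays (limma adjusted p = 0.0973 and 0.120). The Hedgehog co-receptor gene ihog was at -1.53 and botv, which encodes a heparan sulfate synthesis enzyme, at -1.04 in Cbt>69B minus mutant. The Hedgehog acyltransferase gene rasp was at 0.47 in mutant minus w1118. None of these passed.

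Among Wingless pathway genes, the receptor tyrosine kinase gene Ror had the smallest p of the list in mutant versus w1118. Its level was 1.21 ± 0.35 in the mutant, 3.04 ± 0.60 in w1118 and 2.89 ± 0.06 in Cbt>69B (SD, n = 3 each), and the mutant arrays were below all other arrays. The difference was -1.83 (SE 0.30, limma adjusted p = 0.120) from w1118 and, for Cbt>69B minus mutant, 1.68 (SE 0.30, limma adjusted p = 0.0850). On w1118 replicate 2 Ror stood at 2.81, between replicates 1 and 3 at 3.72 and 2.600. The ubiquitin ligase subunit gene slmb, which acts on Armadillo and Ci, was at -2.55 in Cbt>69B minus w1118 and -1.93 in Cbt>69B minus mutant, and CkIalpha, a kinase that acts on the same proteins, at -1.85 in the former (limma adjusted p = 0.0946, 0.192 and 0.0963). The gene por, an acyltransferase that lipid-modifies Wnt proteins, was at 0.19 in the mutant and 0.46 in Cbt>69B against w1118, and Wnt6, the only Wnt ligand gene analysed here, at 0.58 in Cbt>69B minus mutant. None of these passed.

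Among the segmental transcription factors, the pair-rule gene odd was at -1.02 in the mutant (limma adjusted p = 0.358), and lin, which acts downstream of wingless in the dorsal epidermis, at -1.58 (limma adjusted p = 0.0933) in Cbt>69B minus w1118 and -1.40 in Cbt>69B minus mutant. The T-box gene mid was at -1.18 in the mutant (limma adjusted p = 0.497). Its neighbour H15 stood at 1.14 ± 0.16 in Cbt>69B and 0.89 ± 0.12 in the mutant (SD, n = 3 each), near background.

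The members en and gsb each lie beside a related gene, with 0 protein-coding genes between them in the RefSeq table, and the members of each pair differed over the arrays. The gene inv, the paralog of en, stood at 3.94, 4.29 and 4.52 in the mutant, 3.31, 5.01 and 3.002 in w1118, and 4.91, 4.65 and 4.73 in Cbt>69B (replicates 1, 2 and 3), on a probe set that also has the suffix s_at. On w1118 replicate 2 inv was 1.86 above the mean of replicates 1 and 3, where en was lower. The difference for Cbt>69B minus w1118 was 0.99 (SE 0.47, limma adjusted p = 0.186) for inv, and -1.14 for en. The gene gsb-n, the paralog of gsb, stood at 4.67, 5.11 and 4.87 in the mutant, 4.23, 5.46 and 4.03 in w1118, and 5.73, 5.46 and 5.13 in Cbt>69B. All Cbt>69B arrays of gsb-n were above all mutant arrays, by a gap of 0.02 (difference 0.56, SE 0.36, limma adjusted p = 0.413), where gsb was at -1.25. Of all probe sets, 22.4% were higher without overlap in that comparison. Against w1118, gsb-n was at 0.86 in Cbt>69B (SE 0.36, limma adjusted p = 0.148), and the arrays overlapped. The gene lengths of the pairs differ (4205 bases for en and 35231 for inv, 2680 for gsb and 11949 for gsb-n). In Cbt>69B minus w1118, rho of length with the difference was -0.40, and the longer gene of each pair stood higher (gsb was at -0.51). In mutant minus w1118, inv (0.47) stood above en (-0.55), but gsb-n (0.31) below gsb (0.74). The part of length in these differences was not tested. Whether the difference within a pair exceeds the error was not tested.

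Profiles most like those of hh and en were sought by the root mean square difference between log2 levels on the 9 arrays, each probe set centred on its own mean, over 8077 named probe sets above the median level. ptc, at background, was left out. The nearest to hh were oaf (0.17), Naus (0.18) and Dlish (0.20), where the median candidate was at 0.70. The nearest to en were Duba (0.15), ana3 (0.18) and PAN2 (0.18), with a median candidate at 0.82. The probe set of Duba was above background on 4 of 9 arrays and the other 5 on all 9. By the same measure hh and en differed by 0.70, so neither was among the nearest of the other. Within the members above background, smo and ci were closest (0.30), then ci and nkd (0.41), and nkd and gsb farthest apart (1.06).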

How the data were processed

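The deposited values are log2 expression levels, 1 for each probe set on each array. They did not share the same quantiles between arrays, so the final normalization step is unknown. The tools RMA, affy and limma, without versions, stand in the list of tools per the submitters' processing notes. The sources used here give no chip definition file, filter or genome build. Of 18952 probe sets, 183 Affymetrix controls were left out, and 18769 were tested. The platform annotation gave 1 symbol to 13647 probe sets, several to 402 and none to 4720, and symbols were updated by gene ID with the RefSeq table of Release 6 plus ISO1 MT. The probe set of Gli, an older name of ci but the current name of another gene, was left out by its gene ID. The highest Tag control of each array (0.58 to 1.20) served as background, and 43.8% to 62.0% of probe sets exceeded it.

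limma 3.58.1 (R 4.3.3) compared the groups, with 1 term per group over all 9 arrays, moderated tests and Benjamini-Hochberg adjustment at 0.05 over all tested probe sets. Members and lists were chosen with earlier results of these data known. Of the pathway list, the 4 genes with the smallest p in each direction of each comparison are named, and the probe set with the highest mean stands for a gene. The procedure was tested on simulated data. Alternatives were 3 scalings, 2 filters on dim probe sets, a fit on 2 groups, a replicate block, array weights, another variance prior, 1 control array, removal of the length trend and leaving out each array. Whether replicates are separate embryo collections is not stated, so the spread behind each p-value may be technical. The 3 arrays per group limit the precision.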

Additional observations from a re-analysis of the deposited data

How the results depend on the processing

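Limits: detection rested on Tag controls, and ptc was at background, so its difference is not given under any setting. The 3 controls that split leave single arrays deciding the counts of calls, and scan or extraction batches were not analysed here. Over the whole table, the counts of 25, 70 and 48 called probe sets (mutant versus w1118, Cbt>69B versus w1118, Cbt>69B versus mutant) became 3, 18 and 2595 with only the 2 groups fitted, 38, 38 and 2595 with w1118 replicate 2 as the only control, and 5329, 8846 and 3802 with array weights, which gave that array the lowest weight (0.12). For Cbt>69B against w1118, quantile normalization gave 124 and the filter at a mean log2 level of 2 gave 1100. Leaving out 1 array gave 12 to 3987, 11 to 7625 and 24 to 2999, the highest always without w1118 replicate 2. Members called, 0 in each comparison, became 3, 4 and 2 with array weights and 2 (ci and nkd) in Cbt>69B versus w1118 with the filter, and leaving out 1 array gave 0 to 2, 0 to 4 and 0. Of all probe sets, array weights called 28.4%, 47.1% and 20.3%. In Cbt>69B versus w1118 the filter called 15.9% of the 6925 probe sets it kept. The 0 of 43 pathway genes became 28, 34 and 12 with array weights, 6 in Cbt>69B versus w1118 with the filter, and 8 in Cbt>69B versus mutant with only the 2 groups or with w1118 replicate 2 as the only control. Leaving out 1 array gave 0 to 24, 0 to 33 and 0 to 11.

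With the replicate number as a replicate block, 11, 17 and 30 probe sets, 0 members and 0 pathway genes were called. Same-numbered samples deviated from their group means with correlations of -0.37 to 0.26, and differently numbered samples with -0.26 to 0.40. The ranges overlap, so the correlations did not set same-numbered samples apart. Deviations within a group depend on each other, so a shared batch or collection cannot be told from these correlations.

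Of 360 differences of the 6 members above background under alternatives, 18 turned their sign, none of them past the threshold. Only 12 of the 20 alternatives changed a difference from w1118, and 11 changed one of Cbt>69B minus mutant. The values under the others equal those of the main fit and could not turn. In mutant versus w1118 against w1118 replicate 2 alone these were hh (-0.31) and en (0.48), and hh ran from -0.12 (without mutant replicate 2) to 0.36 when 1 array was left out, with -0.03 without mutant replicate 3 and -0.06 without w1118 replicate 1. In Cbt>69B versus w1118 they were hh (0.28) and smo (0.17) with the length trend removed. In Cbt>69B versus mutant smo turned to -0.074 with medians set equal and -0.063 with array weights, nkd to 0.12 with cyclic loess, 0.19 with quantile normalization and 0.26 with the length trend removed, and ci to 0.25 in the last. When 1 array was left out, smo ran from -0.071 to 0.18 and nkd from -0.18 to 0.28 there. The cause of these changes was not tested.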
